A study of Mus musculus with 9 samples.

Results

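The genes described here are 10 brakes on mTORC1, the protein kinase complex that drives protein synthesis and cell growth: Ddit4 (Redd1), Ddit4l (Redd2), the sestrins Sesn1, Sesn2 and Sesn3, the translational repressors Eif4ebp1 and Eif4ebp2, the tuberous sclerosis genes Tsc1 and Tsc2, and Deptor. A probe set, the group of short probes that reads 1 transcript, was taken when its annotation gave exactly 1 gene symbol and that symbol was one of the 10. This gave 30 probe sets of the 45037 on the array, and 10 genes of the 18193 that had such a probe set. The genes were picked with their signals on these arrays already known, so their levels, their differences and the counts of their calls are given as a description and support no statement about them.

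Gene expression was measured on Affymetrix arrays in the tibialis anterior muscle of male C57BL/6J mice aged 15 weeks, with 3 biological replicates in each of 3 groups. Control mice ate an AIN93-based diet and received saline. DEX mice ate the same diet and received dexamethasone, a synthetic glucocorticoid, at 5 mg/kg by daily intraperitoneal injection for a week. DEX + TE mice received the same injections and a diet holding 2% turmeric extract (TE), which by the protocol began 5 days before the first injection. There was no group with TE and saline, and the mice put on arrays had been selected for a body and muscle weight near the mean.

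mTORC1 sits on the lysosome and is switched on by the small GTPase Rheb and, through the Rag GTPases, by amino acids. TSC1 and TSC2 form the complex that switches Rheb off, and Redd1, a protein made under stress and in response to glucocorticoids, acts through that complex. Sestrins hold mTORC1 back when amino acids are scarce, by binding the GATOR2 complex, and DEPTOR binds the kinase itself. The 4E-BP proteins, products of Eif4ebp1 and Eif4ebp2, hold the cap-binding factor eIF4E and release it once mTORC1 phosphorylates them. In skeletal muscle, glucocorticoids are known to lower mTORC1 activity, and Redd1 is known as one route. The arrays read the mRNA of these genes and not the activity of the complex.

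Signals are on the linear scale of the deposited values, on which every array has a trimmed mean of 500. Of the 30 probe sets, 27 had a mean log2 signal of at least log2 of 50 in 1 or more groups and entered the fit with all others. The 3 that did not were 1 each of Sesn2, Tsc1 and Deptor, with group means from 8.29 to 33.0, and are not described further. Group values are means ± SD of 3 arrays, and log2 differences carry the standard error (SE) from limma, a linear model fitted to all 9 arrays. Signals are compared between groups for the same probe set and never between probe sets.

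Ddit4 was the member that moved most. It had 1 probe set, which read 5136, 4308 and 4470 in the control arrays, 390, 258 and 312 in the DEX arrays and 372, 277 and 189 in the DEX + TE arrays. All 6 arrays of injected mice lay far below all 3 control arrays, while the DEX and DEX + TE arrays overlapped. The mean fell from 4638 ± 439 in control to 319.9 ± 66.3 in DEX, a log2 difference of -3.87 (SE 0.26) or a 14.7-fold lower level, and it was 279.6 ± 91.3 in DEX + TE, 17.2-fold below control. Between DEX + TE and DEX the log2 difference was -0.23 (SE 0.26). Every array of the injected mice stayed above a signal of 50, so both folds rest on measured levels. Among the 29269 probe sets in the fit, the Ddit4 difference ranked 4th from the lowest in DEX against control and 3rd in DEX + TE against control, with a log2 difference there of -4.10 (SE 0.26). In muscle tissue, a lower signal can come from fewer cells of a type or from less RNA per cell, and these cannot be told apart here.

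**Figure D1:**
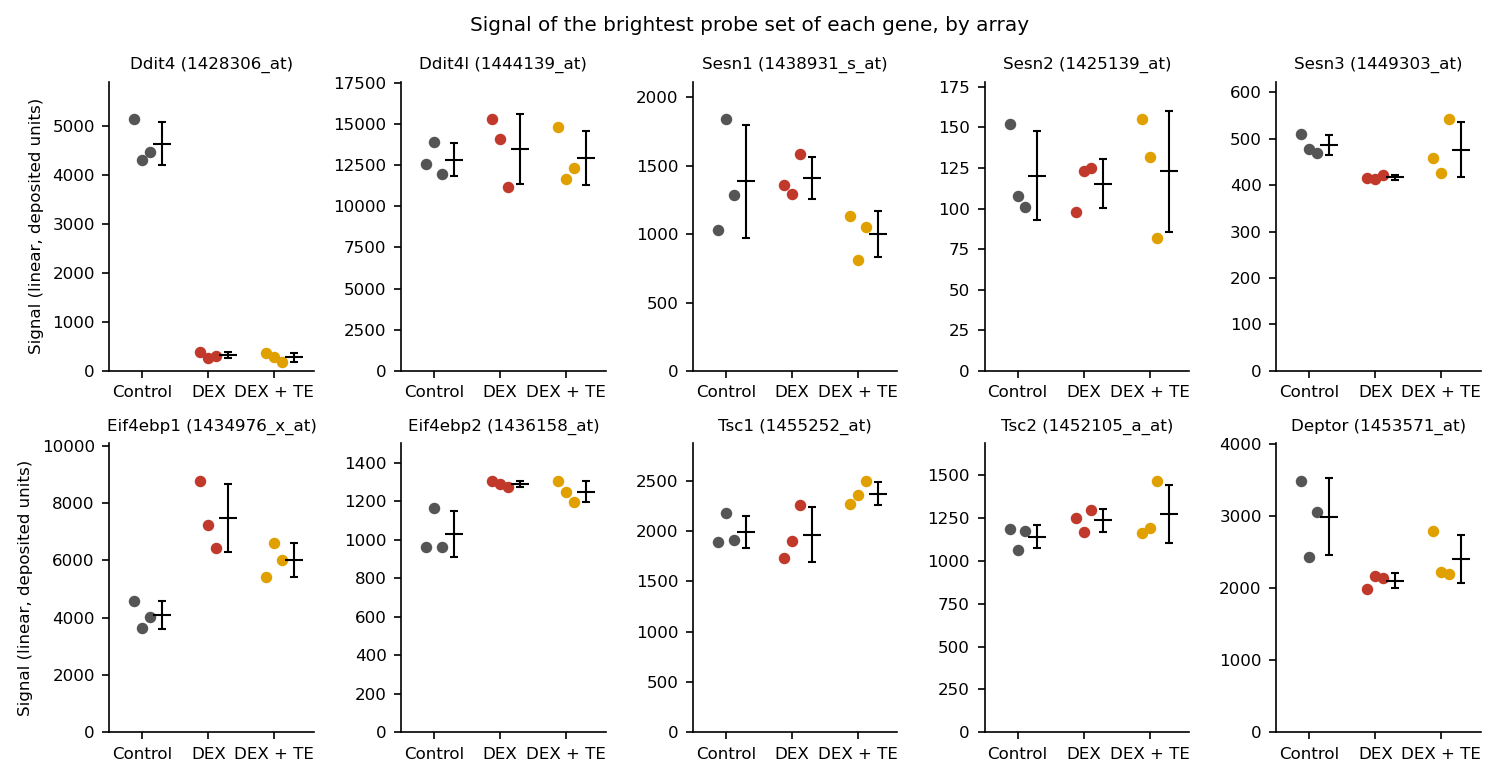
Linear signal (y axis, starting at 0) of the brightest probe set of each of the 10 genes in control, DEX and DEX + TE arrays. Points are single arrays, and bars are the mean ± SD of 3 arrays. Ddit4 fell from 4638 in control to 319.9 in DEX and 279.6 in DEX + TE, whereas Ddit4l stayed between 11146 and 15291 on all 9 arrays.

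Ddit4l, the close relative of Ddit4 that also restrains mTORC1 and is strongly made in muscle, showed no such change. Its brightest probe set read 12555, 13925 and 11981 in control, 15291, 14076 and 11146 in DEX and 14802, 11667 and 12339 in DEX + TE. The 3 groups overlapped, with log2 differences of 0.07 (SE 0.16) for DEX against control and -0.06 (SE 0.16) for DEX + TE against DEX. The other 2 probe sets of Ddit4l differed from control by 0.14 (SE 0.14) and 0.11 (SE 0.13) in DEX, also with overlap. Across the 9 arrays the 3 Ddit4l probe sets correlated with each other at r from 0.81 to 0.91, so they read the same differences between arrays.

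The DNA just upstream of these paralogs is shown because their mRNA levels parted so widely. Each line gives the 250 bases before the annotated transcription start, 5′ to 3′ on the gene's strand, from RefSeq on GRCm38.p6. Capitals mark 2 motifs, on either strand: the CCAAT box (CCAAT) and the GC box (GGGCGG). The Ddit4 window is chr10:59951771-59952020 on the minus strand, and the Ddit4l window is chr3:137623422-137623671 on the plus strand.
Ddit4: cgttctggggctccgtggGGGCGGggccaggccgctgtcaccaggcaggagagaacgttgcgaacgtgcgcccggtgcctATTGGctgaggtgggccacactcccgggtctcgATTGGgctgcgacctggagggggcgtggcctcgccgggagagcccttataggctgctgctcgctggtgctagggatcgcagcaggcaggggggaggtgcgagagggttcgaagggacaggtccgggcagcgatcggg
Ddit4l: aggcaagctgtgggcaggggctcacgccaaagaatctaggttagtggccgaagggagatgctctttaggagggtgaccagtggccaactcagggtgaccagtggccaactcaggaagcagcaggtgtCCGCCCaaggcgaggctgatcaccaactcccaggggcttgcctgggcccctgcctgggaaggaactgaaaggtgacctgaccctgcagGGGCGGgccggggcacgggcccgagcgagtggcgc

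The Ddit4 window held 2 CCAAT boxes and 1 GC box, 22 CG dinucleotides and 70.0% G and C. The Ddit4l window held 2 GC boxes and no CCAAT box, 10 CG dinucleotides and 65.2% G and C, against a median of 52.4% over all 32851 mouse promoter windows of the same length. The CCAAT box stood in 33.8% of those windows and the GC box in 32.7%. These 2 motifs do not overlap in either window, and they were added to the search after the windows had been read. The other 6 motifs searched on both strands had no match in the 9 windows of the 8 members that RefSeq gave, with Eif4ebp1 and Deptor not matched. They were the glucocorticoid response element (in 0.387% of all windows), the E-box (CACGTG, 6.02%), the cyclic AMP response element (TGACGTCA, 1.55%), the C/EBP-ATF response element (TGATGNAA, 3.45%), the forkhead element (TGTTTAC, 3.17%) and the TATA box (TATAAA, 12.4%). No match says only that these letters are not in these 250 bases.

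The sestrins moved little, and the probe sets of Sesn1 did not all read alike. Sesn1, a stress-induced sestrin prominent in muscle, had 4 probe sets past the filter. The brightest read 1031, 1840 and 1287 in control, 1361, 1291 and 1584 in DEX and 1135, 810 and 1054 in DEX + TE. DEX + TE lay below DEX on all arrays (log2 difference -0.51, SE 0.23), while control overlapped both. Another Sesn1 probe set (1433711_s_at) also lay lower in DEX + TE than in DEX without overlap, by -0.56 (SE 0.18), and another (1454699_at) by -0.47 (SE 0.22) with overlap. The dim remaining one (1444376_at), with group means from 44.5 to 70.8, went the other way by 0.68 (SE 0.27). Correlations between the Sesn1 probe sets over the 9 arrays ran from -0.59 to 0.82, and the negative ones all involved the dim probe set. Against control, only 1433711_s_at separated from DEX, with 1053, 1082 and 1053 in control and 1714, 1130 and 1256 in DEX (log2 difference 0.34, SE 0.18), and only 1454699_at separated from DEX + TE, which was lower by -0.61 (SE 0.22).

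Sesn2, the leucine-binding sestrin, was dim. It read 152, 108 and 101 in control, 97.9, 123 and 125 in DEX and 155, 132 and 81.7 in DEX + TE, so its groups overlapped throughout and its log2 differences lay between -0.05 and 0.05 (SE 0.27). For Sesn3, a sestrin that is a FoxO target, the brightest probe set read 509.7, 479 and 469 in control, 415, 413 and 422 in DEX and 459, 427 and 542 in DEX + TE. DEX lay below both other groups on all its arrays, by a small margin: -0.22 (SE 0.11) against control, with DEX + TE 0.18 (SE 0.11) above DEX. That second difference was -0.07 when each array was centred on its own median, so its direction depends on the scaling. The second Sesn3 probe set, at 96.7 to 196, overlapped in every comparison.

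Eif4ebp1 had the largest positive differences from control in DEX among the member probe sets. Its brightest probe set (1434976_x_at) read 4601, 3626 and 4024 in control, 8778, 7242 and 6436 in DEX and 5422, 6614 and 6029 in DEX + TE. All 6 arrays of injected mice lay above all controls. The level was 4084 ± 490.1 in control and 7485 ± 1190.1 in DEX, 1.83-fold higher with a log2 difference of 0.87 (SE 0.16), and DEX + TE was 1.48-fold above control. DEX + TE overlapped DEX, with a log2 difference of -0.31 (SE 0.16). The x in the name of this probe set marks probes that may also bind other transcripts. A second one without that mark (1417562_at) read 2651, 2312 and 2000 in control, 4645, 3444 and 3409 in DEX and 3146, 3607 and 3561 in DEX + TE. It gave nearly the same differences, 0.72 (SE 0.16) for DEX and 0.57 (SE 0.16) for DEX + TE against control, and the 2 correlated at r = 0.95 over 9 arrays. The third (1417563_at), dimmer at 208 to 362, overlapped in all comparisons and correlated with the other two at 0.08 and 0.30.

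Eif4ebp2, the second 4E-BP gene, had smaller differences. Its brightest probe set read 965, 1167 and 960 in control, 1307, 1290 and 1273 in DEX and 1306, 1248 and 1196 in DEX + TE. Controls lay below both injected groups, which overlapped each other. The log2 difference was 0.33 (SE 0.11) in DEX and 0.28 (SE 0.11) in DEX + TE. Another probe set (1437733_at) separated from control in the same way, by 0.34 (SE 0.11) and 0.20 (SE 0.11), and another (1455575_at) only in DEX + TE, by 0.27 (SE 0.19). With arrays centred on their medians, these 3 differences between DEX + TE and control shrank to 0.13, 0.05 and 0.12. The fourth (1417084_at) overlapped everywhere, at 0.09 (SE 0.21) in DEX. The fifth, with signals from 11.4 to 110.1, had an SE of 0.79 and no separation.

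Tsc1, the stabilising subunit of the TSC complex, and Tsc2, its Rheb-inactivating subunit, stayed close to control in DEX. The brightest Tsc1 probe set read 1889, 2173 and 1908 in control, 1729, 1901 and 2258 in DEX and 2263, 2352 and 2498 in DEX + TE. DEX + TE was the highest group with no overlap, by 0.28 (SE 0.13) over DEX and 0.25 (SE 0.13) over control, which shrank to 0.03 and 0.10 with arrays centred on their medians. The other Tsc1 probe set past the filter, at 115 to 227, overlapped in all comparisons. Tsc2 read 1184, 1061 and 1170 in control, 1246, 1165 and 1296 in DEX and 1161, 1188 and 1465 in DEX + TE. Its groups overlapped, with differences from control of 0.12 (SE 0.12) in DEX and 0.15 (SE 0.12) in DEX + TE.

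Deptor, which binds and inhibits the mTOR kinase, lay below control in DEX on most of its probe sets and was not called. The brightest read 3487, 2426 and 3048 in control, 1981, 2170 and 2146 in DEX and 2786, 2224 and 2192 in DEX + TE. DEX lay below control and also below DEX + TE on every array, while DEX + TE overlapped control. The log2 difference of DEX from control was -0.49 (SE 0.16). The next probe set (1428622_at) read 2637, 2565 and 2475 in control, 1916, 1719 and 1870 in DEX and 1945, 2196 and 1367 in DEX + TE. Here both injected groups lay below control, by -0.48 (SE 0.17) in DEX and -0.51 (SE 0.17) in DEX + TE. Of the 5 Deptor probe sets past the filter, 4 lay below control in DEX without overlap, by between -0.28 and -0.49. The remaining one (1419963_at) overlapped at -0.18 (SE 0.32). Of all probe sets, 12.1% lay lower in DEX without overlap. The 5 read the same gene on the same arrays, with r from 0.24 to 0.92 between them, so they are not separate evidence. For DEX + TE the probe sets parted: 2 lay below control without overlap, as did 10.3% of all probe sets. The larger difference of these was that of 1443579_s_at at -0.64 (SE 0.16). The difference of the brightest one between DEX + TE and DEX, 0.19 (SE 0.16), became -0.07 with arrays centred on their medians.

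**Figure D2:**
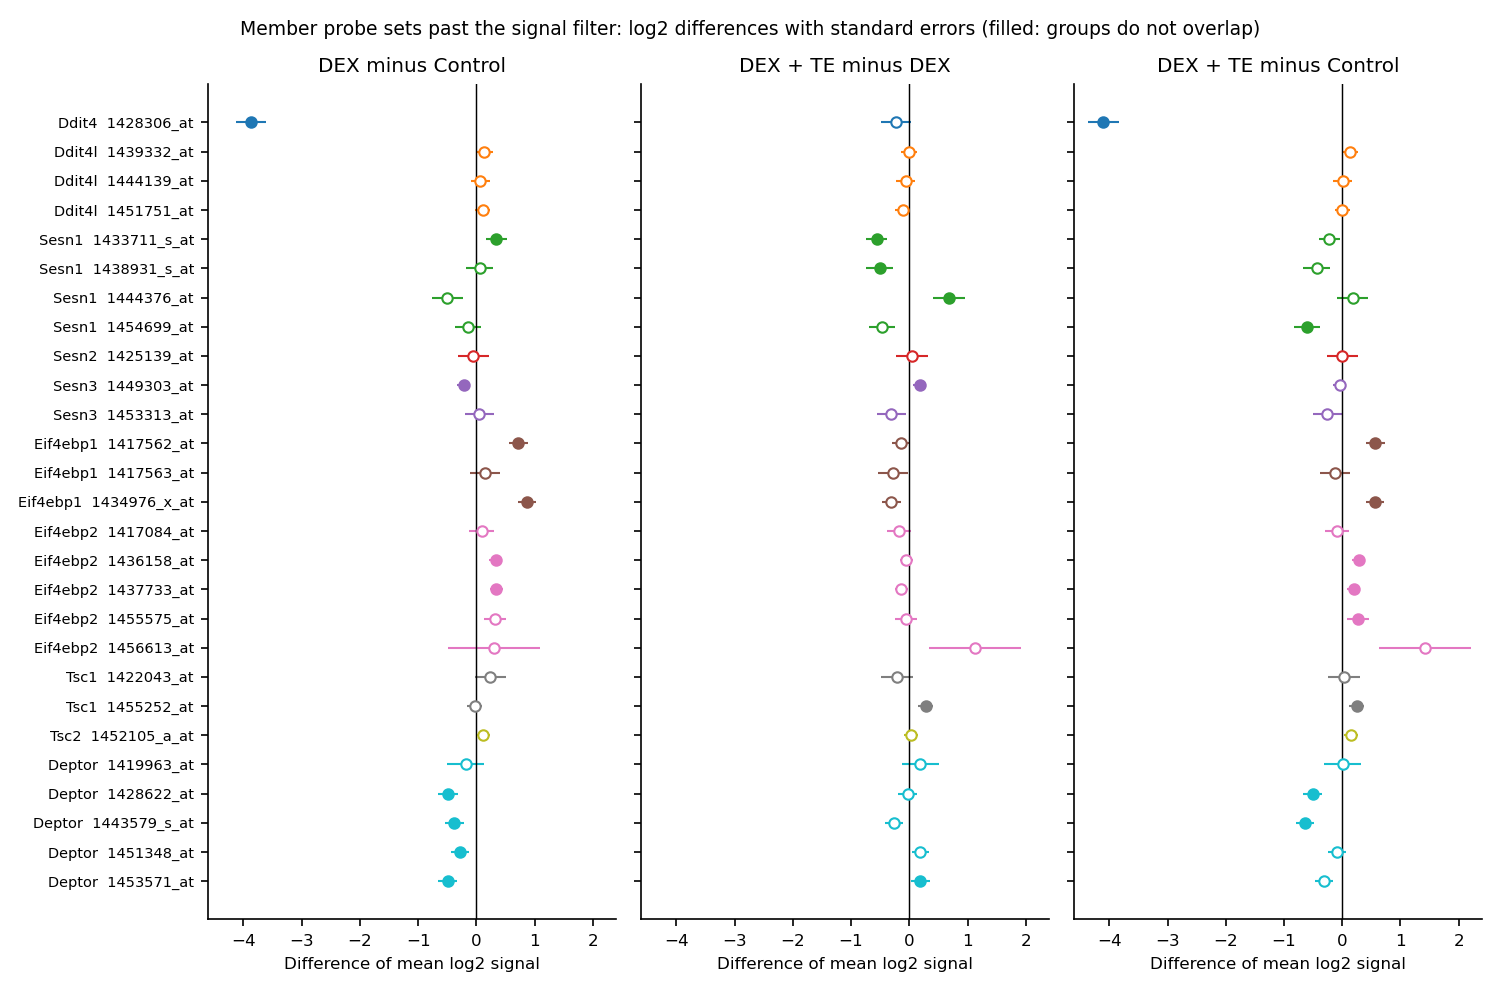
Difference of mean log2 signal (x axis) for each of the 27 member probe sets past the signal filter (rows), in 3 panels for DEX minus control, DEX + TE minus DEX and DEX + TE minus control. Points are differences, bars are ± 1 limma SE, colours are genes, and filled points have groups that do not overlap. Ddit4 stands alone at -3.87 and -4.10 against control, and the 2 brighter Eif4ebp1 probe sets lie at 0.72 and 0.87 in DEX.

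Of the 10 genes, only Ddit4 had a probe set that was called. A probe set was called when its limma p, adjusted by Benjamini-Hochberg over all probe sets, was under 0.05 and its absolute log2 difference at least 0.6. In DEX against control, 1 of the 27 member probe sets was called lower, that of Ddit4, and 0 higher, against 0.27% and 0.232% of all probe sets in the fit. Rank Product, the study's method but rerun here on the deposited values, also called Ddit4 alone (0.263% of all). The study ran it on values summarised in another way. Its table of FoxO3-linked genes past its own cut-offs held Ddit4 as lower and Eif4ebp1 as higher. By real-time RT-PCR, an mRNA assay without arrays, the study also reported significantly lower Redd1 after DEX, with no change from TE. It further states that neither DEX nor TE changed the phosphorylation ratio of mTOR. On the arrays, groups did not overlap in 5 higher and 6 lower member probe sets. The shares of all probe sets were 9.07% and 12.1%. The median log2 difference was 0.07 over the member probe sets and -0.03 over all, and the median absolute difference was 0.24 in both.

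Between DEX + TE and DEX, limma called 0 member probe sets in either direction, against 0.00683% of all in each. At an unadjusted p under 0.05, 1 member probe set was higher and 1 lower (7.76% of all in both directions together), and Rank Product called 0 (0.106% of all). The groups did not overlap in 4 higher and 2 lower member probe sets, with 10.1% and 4.75% of all probe sets. The median was -0.06 over the members and 0.05 over all. With the median of every array set equal, the median over all probe sets in this comparison became -0.20, and then 3 of the 27 member probe sets were higher and 24 lower by value, in place of 9 and 18.

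The comparison of DEX + TE with control shares its control arrays with the first. Again 1 member probe set was called lower, that of Ddit4, and 0 higher, against 0.157% and 0.222% of all. Rank Product called the same 1 (0.451% of all). The groups did not overlap in 6 higher and 4 lower, with 12.4% and 10.3% of all probe sets, and the medians were 0.00 and 0.05. Ddit4 was called in both comparisons with control under each of 17 other settings, and under 0 of the 17 in DEX + TE against DEX. Eif4ebp1 was called higher in DEX under 3 of these settings: with a variance trend, with a group mean of at least 100 required, and with signals below 50 set to 50. Deptor (1443579_s_at) was called lower in DEX + TE against control under the variance trend.

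The rest of the mTORC1 pathway was read from a list of 54 genes that holds the kinase complex, its activators, its amino acid and energy sensors and its targets, without the 10 genes above. One probe set per gene was used, the brightest, and 49 genes had one, all past the filter. Limma called 0 of the 49 in each of the 3 comparisons, and so did Rank Product. At an unadjusted p under 0.05 (14.4% of all probe sets in the first comparison and 13.8% in the third), 4 were higher and 2 lower in DEX against control, 1 and 0 in DEX + TE against DEX, and 2 and 4 in DEX + TE against control. The medians were 0.03, -0.05 and -0.01. In the core complex, Mtor, the kinase, differed by 0.08 (SE 0.11) in DEX, and Rheb, its activator, by 0.14 (SE 0.15). Rptor, the scaffold subunit, lay below control without overlap in both injected groups, by -0.26 (SE 0.14, adjusted p = 0.46) in DEX and -0.31 (SE 0.14, adjusted p = 0.392) in DEX + TE, and did not pass the test. Mlst8, a further core subunit named after its values were seen, differed by -0.31 (SE 0.15) in DEX and -0.06 (SE 0.15) in DEX + TE, with overlap. Less bright probe sets of these genes went the other way or differed more. That of Rptor was at 0.80 in DEX and 0.42 in DEX + TE, and that of Mlst8 at 0.94 and 1.00. Those of Mtor were at 0.39 and 0.63 in DEX.

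Among the sensors, Castor1, which holds GATOR2 back until it binds arginine, had the largest difference in the list. Its signal was 333 ± 36.6 in control, 138 ± 36.2 in DEX and 192 ± 98.8 in DEX + TE. Both injected groups lay below control without overlap, by -1.30 (SE 0.39, limma adjusted p = 0.2) and -0.93 (SE 0.39, adjusted p = 0.355), and neither passed the test. Depdc5, a subunit of the GATOR1 brake, differed by -0.66 (SE 0.34) in DEX and by 0.61 (SE 0.34) between DEX + TE and DEX, with overlap, and its 3 other probe sets ran from -0.93 to 0.39 in DEX. Prkaa1, a catalytic subunit of the energy sensor AMPK, was at 218 ± 39.6 in control and 288 ± 7.59 in DEX, a difference of 0.41 (SE 0.15, adjusted p = 0.282). Wdr59, a GATOR2 subunit, differed by -0.52 (SE 0.25) between DEX + TE and DEX. After Castor1, the next largest against control in DEX + TE were Fnip1, a partner of folliculin, at -0.56 (SE 0.19) and Rhebl1, a relative of Rheb, at -0.46 (SE 0.21). The other probe set of Rhebl1 differed by 0.29 there. Eif4ebp3, the last 4E-BP gene, had no probe set with a single symbol.

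ATF4, the transcription factor of the amino acid and endoplasmic reticulum stress response, is known to induce Ddit4, Sesn2 and Eif4ebp1. The brightest probe set of Atf4 itself differed by 0.18 (SE 0.14) in DEX and 0.04 (SE 0.14) in DEX + TE from control. The other Atf4 probe set, less bright and with an x in its name, differed more, by 0.51 in DEX and 0.67 in DEX + TE. Of 22 ATF4-linked genes listed, 20 had a probe set and 19 entered the fit, and 1 of them was called in DEX against control: Mthfd2, a mitochondrial folate enzyme, rose from a mean of 150.5 to 297 ± 26.5 (log2 difference 0.98, SE 0.12, limma adjusted p = 0.0259), while its other probe set differed by 0.27. At an unadjusted p under 0.05, 5 of the 19 were higher and 2 lower, where 14.4% of all probe sets passed in both directions together. Larger differences that did not pass were those of Slc7a11 at 2.12 (SE 0.45), Atf3 at 2.00 (SE 0.49) and Ppp1r15a at 1.18 (SE 0.24), named here after their values were seen. Slc7a11 was dim, at 11.1 ± 4.24 in control, 48.4 ± 18.9 in DEX and 64.0 ± 27.1 in DEX + TE. It passed the filter only through DEX + TE, so its difference in DEX rests on levels below that filter. The shares of all probe sets called, given above, were 0.232% higher and 0.27% lower. Cebpb, a transcription factor, was the 1 called in DEX + TE against control, and it fell from 11722 ± 787 to 6076 ± 420.3 (log2 difference -0.95, SE 0.11, adjusted p = 0.0282), against 0.157% of all probe sets called lower. Between DEX + TE and DEX, limma and Rank Product called 0 of the 19, with 1 past an unadjusted p of 0.05, which was lower (7.76% of all probe sets). The largest differences there were those of Slc7a5, an amino acid transporter, at -0.79 (SE 0.37), Slc7a11, the cystine transporter, at 0.41 (SE 0.45), and Ppp1r15a, a regulator of eIF2 phosphatase, at -0.37 (SE 0.24). Both calls depended on single arrays. Mthfd2 kept its call without DEX replicate 3 or DEX + TE replicate 3 and lost it without any other single array, with adjusted p from 0.00951 to 0.113 over all settings. Cebpb kept its call without DEX replicate 1 or DEX replicate 2 and lost it without any other single array, with adjusted p from 7.96e-05 to 0.136.

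Ddit4 is also known as a gene that the glucocorticoid receptor induces, so 26 measured genes of a list of 27 of that kind, the receptor included, were read beside it. Several of them stand in a table that the study chose on these arrays, so the list is not independent evidence of a direction. In DEX against control 2 were called higher and 2 lower, against 0.232% and 0.27% of all probe sets. Lcn2, a secreted lipocalin, rose from 35.2 ± 23.4 to 11620.3 ± 3095 (adjusted p = 0.00207), and no fold is given because the control mean lay under the filter. Fkbp5, a chaperone of the receptor and a standard marker of its activity, rose from 1163 ± 187 to 5724 ± 1869 (log2 difference 2.26, SE 0.24, limma adjusted p = 0.0134). Nfkbia, the inhibitor of NF-kappaB, fell from 7929 ± 999 to 3283 ± 535 (log2 difference -1.28, SE 0.17, adjusted p = 0.0324). Sgk1, a kinase related to AKT, fell from 29962 ± 2238 to 18219.9 ± 1107 (log2 difference -0.72, SE 0.10, adjusted p = 0.0416). Ddit4 therefore stood with Nfkbia and Sgk1 in direction, and opposite Fkbp5 and Lcn2.

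The other genes of the list did not pass the test in DEX against control. By value, 13 of the 26 genes were higher and 13 lower. At an unadjusted limma p under 0.05, 8 were higher and 6 lower, where 14.4% of all probe sets passed in both directions together. Among those not called, Cdkn1a differed by 1.83 (SE 0.32), Mt2 by 1.47 (SE 0.42) and Per1 by -1.38 (SE 0.23), named after their values were seen. Tsc22d3, which encodes the anti-inflammatory protein GILZ, was at 12242 ± 579 in control and 7091 ± 1296 in DEX (log2 difference -0.80, SE 0.14, limma adjusted p = 0.0685). Klf15, a metabolic transcription factor, differed by -0.13 (SE 0.27), and Nr3c1, the receptor gene, by -0.07 (SE 0.10). The study's RT-PCR differed for Klf15, which it reported as significantly lower after DEX and unchanged by TE. Against control, Lcn2 at 7719.7 ± 705 and Fkbp5 at 4234 ± 302 (adjusted p = 0.0314) were called higher and Nfkbia at 3098 ± 413 (adjusted p = 0.0314) lower in DEX + TE, against 0.222% and 0.157% of all probe sets. None of the 26 was called by limma or Rank Product between DEX + TE and DEX, with 7 past an unadjusted p of 0.05, 1 of them higher and 6 lower. The share of all probe sets past that p was 7.76%, with 1816 higher and 456 lower, and the median was -0.33 over the list and 0.05 over all. The largest differences were those of Angptl4, an inhibitor of lipoprotein lipase, at -1.26 (SE 0.40), Trim63, the muscle ubiquitin ligase MuRF1, at -0.71 (SE 0.12), and Klf15 and the phosphatidylinositol kinase subunit Pik3r1, both at -0.67 (SE 0.27 and 0.64).

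Lcn2 kept its calls without any single array. In DEX against control, Fkbp5 lost its call without control replicate 2 or 3, Nfkbia kept its call only without DEX replicate 3, and Sgk1 lost its call without any single array, with adjusted p up to 0.106, 0.119 and 0.162. In DEX + TE against control, Fkbp5 and Nfkbia kept their calls only without DEX replicate 1 or 3, with adjusted p up to 0.122 and 0.108.

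**Figure D3:**
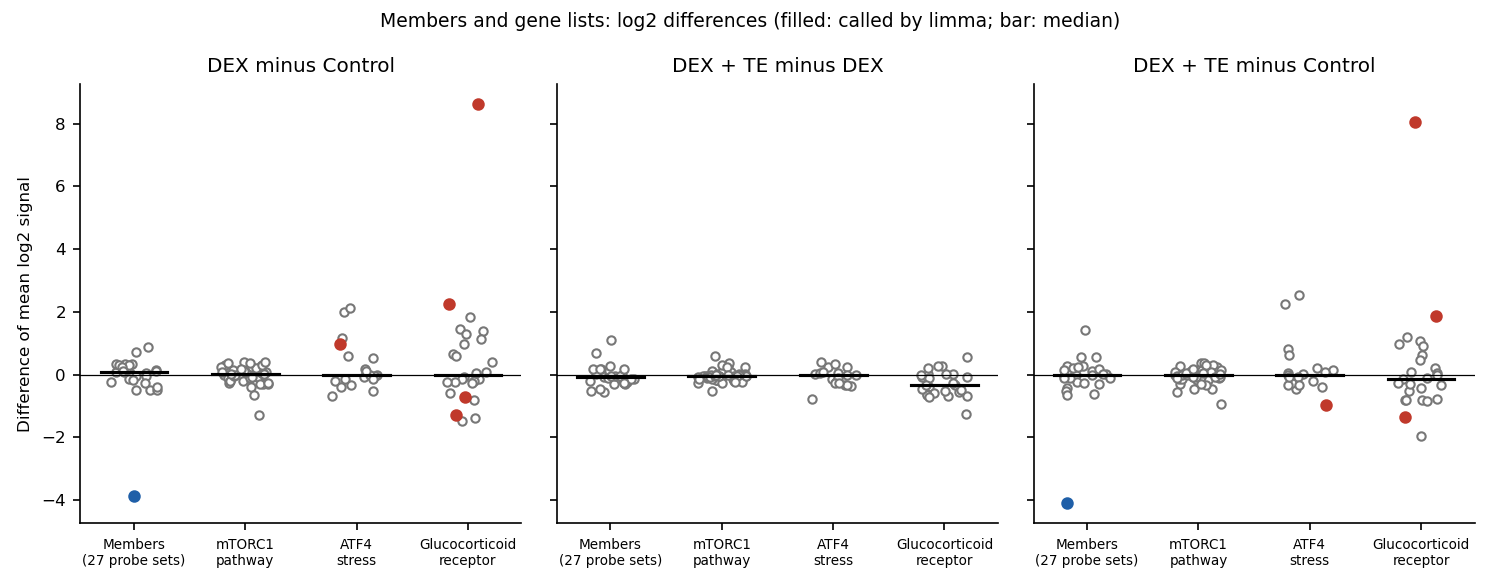
Difference of mean log2 signal (y axis) for the 27 member probe sets and for the 49 mTORC1 pathway genes, 19 ATF4 stress genes and 26 glucocorticoid receptor genes in the fit (x axis), in 3 panels for the 3 comparisons. Points are probe sets, filled points were called by limma, and black bars are medians. None of the mTORC1 pathway genes was called, their medians lie between -0.05 and 0.03, and the lowest, Castor1, lies at -1.30 in DEX minus control. The filled member point at -3.87 and -4.10 is Ddit4.

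Genes whose signal followed Ddit4 most closely were found by Pearson's r of log2 signal over the 9 arrays, among 13662 genes with 1 probe set each. The 5 most alike were Aqp1, a water channel (r = 0.99), Fez2 (0.989), Prkab2, a regulatory subunit of AMPK (0.983), Sod2, the mitochondrial superoxide dismutase (0.983), and Usp9x, a deubiquitinase (0.982). Their differences were far smaller than that of Ddit4. Aqp1 was at 12009 ± 340 in control, 7743 ± 333 in DEX and 7756 ± 146 in DEX + TE, and the differences of the 5 from control in DEX lay between -0.40 and -0.63. The 5 most opposite were Cep85, a centrosomal protein (-0.989), Thbs1, the matrix protein thrombospondin 1 (-0.986), Ptprf, a receptor phosphatase (-0.986), Cdkal1, a tRNA-modifying enzyme (-0.981), and Rasl11a, a Ras-like GTPase (-0.978). Cep85 went from 288 ± 42.6 in control to 2385 ± 229.7 in DEX and 2711 ± 137 in DEX + TE. These values of r mostly reflect the gap between control and injected mice that all these genes share. Once group means were taken off, r ranged from 0.473 (Sod2) to 0.899 (Prkab2) among the 5 most alike and from -0.131 (Rasl11a) to -0.759 (Thbs1) among the 5 most opposite.

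**Figure D4:**
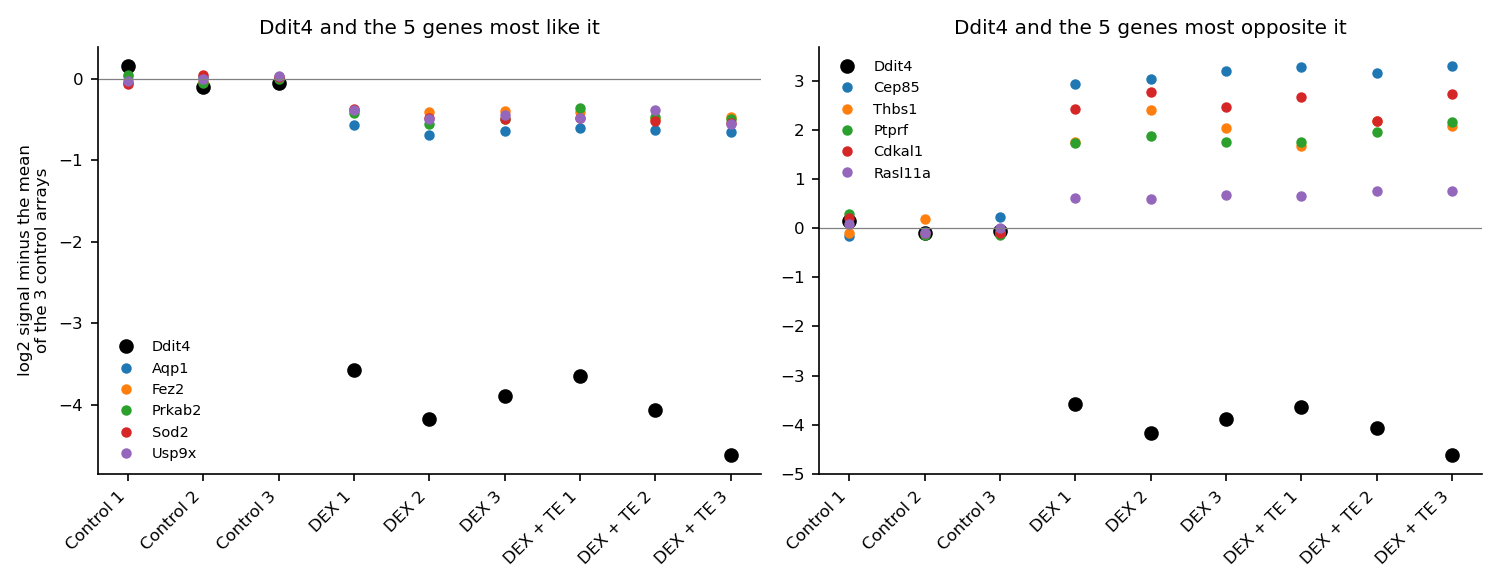
log2 signal minus the mean of the 3 control arrays (y axis) for Ddit4 in black and the 5 genes most like it (left) or most opposite to it (right) in colour, on each of the 9 arrays (x axis). Points are single arrays. Ddit4 and the alike genes lie lower in both injected groups than in control, by -3.87 for Ddit4 and between -0.40 and -0.63 for the others in DEX, and the opposite genes lie higher.

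By the same measure Deptor ran with Ddit4 over the 9 arrays (r = 0.752), and Eif4ebp1 (-0.83) and Eif4ebp2 (-0.835) ran against it. Within groups these values were 0.469, 0.176 and 0.194, so the opposition of the 4E-BP genes to Ddit4 lay in the difference between groups. For Ddit4l, r with Ddit4 was -0.048. These r are descriptions over 9 arrays in 3 groups, for the brightest probe set of each gene.

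The tissue matched its label: all 8 skeletal muscle markers, Ckm and Acta1 among them, were bright. Their summed signal was 454659 to 639045 in control, 356123 to 451435 in DEX and 439025 to 472627 in DEX + TE. In DEX all 8 markers were lower by value than in control, with 0 called by limma or Rank Product. At an unadjusted limma p under 0.05, 7 were lower, where 14.4% of all probe sets passed in both directions together. The 6 fibroblast markers summed to 25532 to 38849 in control, 16675 to 19385 in DEX and 24241 to 26531 in DEX + TE, with Col1a1 and Col3a1 called lower in DEX and Col3a1 also in DEX + TE against control. The 4 measured adipocyte markers summed to 20648 to 24601, 16199 to 19759.5 and 19897 to 22058, most of it from Fabp4 at 21965, 16647 and 18995. The other 3 lay above control in both injected groups without overlap, with Adipoq at 360 ± 87.0, 831 ± 97.6 and 1659 ± 451. Cidec, at 40.6, 89.3 and 129, and Lep, at 58.9, 75.5 and 149, were dim, and the control mean of Cidec lay under the filter. The list medians, 0.78 in DEX and 1.52 in DEX + TE, rest in part on these dim genes. Adipoq was called higher in DEX + TE against control. The 6 endothelial markers summed to 3391 to 4138, 4314 to 4814 and 4588 to 4813, with Cldn5, at 351, 1035 and 1501, called higher in both comparisons with control. The list medians were 0.10 and 0.07, and Cdh5 differed by -0.14 and -0.59 and Pecam1 by 0.20 and -0.18. The 6 macrophage markers summed to 1451 to 2231, 1432 to 1898 and 2090 to 2341, with 0 called. Lymphocyte, erythroid and Schwann cell markers had 2, 1 and 2 genes past the filter and 0 called in all 3 comparisons, and Cd3e, Cd4 and Hba-a1 were below the filter. The markers named with values were chosen after these were seen. The part of these shifts in the differences of Ddit4, Deptor and the 4E-BP genes was not tested.

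Array medians ran from 71.5 to 95.0, 58.5% to 65.2% of probe sets reached a signal of 50, and replicates of a group correlated at 0.936 to 0.949 over all probe sets. No single array stood apart by these measures, but DEX and DEX + TE did not overlap in 2 of them. Medians were 71.5, 73.7 and 77.7 in DEX and 85.8, 84.7 and 95.0 in DEX + TE. The share at 50 or more was 58.5% to 60.0% in DEX and 62.5% to 65.2% in DEX + TE. Control overlapped both groups. Small differences between DEX + TE and DEX can therefore depend on the scaling, as the values with centred arrays show. With 3 arrays a group, their number limits the precision of every level.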

How the data were processed

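The values the authors deposited are linear intensities, 1 for each probe set on each array, and all are above 0. Their mean after trimming 2% from both ends was 500 on every array. The methods of the study name Robust Multi-array Average, whose values are log2, so the deposited ones are another summary, made by a program not given in the sources used here. All 3 DEX + TE titles place turmeric extract after dexamethasone, whereas the protocol places it before.

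Of 45101 probe sets, 64 controls were left out. The log2 of each intensity was taken without an offset, and probe sets with a group mean of at least log2 of 50 were kept (29269). All 9 arrays entered 1 fit in limma 3.58.1 (R 4.3.3) with 3 group means and Benjamini-Hochberg adjustment at 0.05, with an absolute log2 difference of at least 0.6. The study used Rank Product, which was written in Python 3.11.15 with 100 permutations as an alternative. Both were tested on simulated data. Figures were drawn with matplotlib 3.10.9. Symbols came from the array annotation, where 34945 probe sets had 1 symbol, 932 several and 9160 none.

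The members, the 3 gene lists and the 8 marker lists were chosen with earlier results of these data known. List genes were named when called (up to 6), or else as the 3 largest differences, with Mtor, Rptor, Rheb, Eif4ebp3, Nr3c1, Fkbp5, Tsc22d3, Klf15 and Atf4 always. Marker genes, and the few further list genes so described above, were named after their values were seen.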

Additional observations from a re-analysis of the deposited data

How the results depend on the processing

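The members' log2 differences and the counts of calls among the members and the 3 gene lists were recomputed under 8 other settings of limma and without each array in turn, and the counts also under Rank Product and, for lists, with any probe set of a gene. Correlations and marker values were not recomputed. The log2 differences of Ddit4 from control ranged from -4.03 to -3.73 in DEX and from -4.33 to -3.85 in DEX + TE, and from -0.48 to 0.03 between DEX + TE and DEX. Of 1320 recomputed values of the other member probe sets, 25 moved by 1 SD or more, 24 of them with arrays centred on their medians and 1 without control replicate 2. The number of member probe sets called in DEX against control was 2 with a group mean of at least 100, 3 with a variance trend and 2 with signals below 50 set to 50, and in DEX + TE against control 2 with the trend. Without single arrays it was 1 in both. For ATF4 genes in DEX against control the count was 3 with a mean of at least 100, 4 with the trend, 2 with signals set to 50, and 0 with median centring, no filter, only the arrays compared, the replicate block or Rank Product, and 0 to 2 without single arrays. In DEX + TE against control it was 2 with a mean of at least 100, 2 with the trend, and 0 with no filter, only the arrays compared, the block or Rank Product, and 0 to 1 without single arrays. For glucocorticoid receptor genes in DEX against control it was 7 with a mean of at least 100, 10 with the trend, 7 with signals set to 50, 2 with no filter, 1 with only the arrays compared, 2 with the block and 1 with Rank Product, and 1 to 4 without single arrays. In DEX + TE against control it was 10 with the trend and 1 with no filter, the block or Rank Product, and 1 to 3 without single arrays, and in DEX + TE against DEX 1 with the trend. No mTORC1 pathway gene was called by limma or Rank Product under any setting or without any array. The cause of these shifts was not tested. Replicate numbers did not pair the arrays: same-numbered arrays correlated at -0.021 to 0.048 after group means were taken off. With the replicate block 1 member probe set was called in each comparison with control, as without it.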
